A study of Mus musculus with 8 samples.

Results

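The EGF family ligands and ERBB receptors examined here were 10 genes chosen by symbol: the ligand genes Areg, Hbegf, Ereg, Tgfa, Btc and Epgn, the receptor genes Egfr, Erbb2 and Erbb3, and the receptor inhibitor gene Errfi1. All 10 had a row among the 15540 genes of the authors' deposited table. The samples were tongue epithelia of C57BL/6 mice that carried both K14-rtTA and TRE-FLBmi-1, a genotype called KrTB. K14-rtTA places a doxycycline-dependent transactivator behind the keratin 14 promoter of basal keratinocytes, and TRE-FLBmi-1 places a Bmi-1 construct behind the element that this transactivator binds. The KrTB group (4 libraries) received water, and the KrTB+DOX group (4 libraries) received water with 2 mg/mL doxycycline. No source used here gives the ages of the mice or the length of treatment. Both groups carried the transgenes, and mice given doxycycline without them were not analysed here, so the drug and the construct cannot be told apart. Values of single libraries were not analysed here, so the members are given as the mean over the groups, the difference and its error.

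EGF family ligands are made as membrane-anchored precursors that proteases of the ADAM family release from the cell surface. The freed ligand binds Egfr, which pairs with itself or with Erbb2 or Erbb3 and starts the Ras, ERK and PI3 kinase cascades. In stratified epithelia such as skin and tongue, keratinocytes make several of these ligands themselves, and the loop is known for its part in proliferation, migration and wound closure. Errfi1 encodes Mig6, a feedback inhibitor that binds the receptor kinase.

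The comparison asked which of these transcripts differed between tongue epithelium with and without doxycycline. Bmi1 was 5.42 higher on the log2 scale in KrTB+DOX (SE 0.10, limma adjusted p = 4.5e-09) in the authors' deposited table, and this value set the sign of every other difference. None of the 10 members passed an adjusted p under 0.05 in limma: 0 were called higher and 0 lower, where 8.13% of all genes were called. At an unadjusted p under 0.05, 2 of the 10 members passed, Tgfa and Errfi1, and 25.2% of all genes did. Of the 6 ligands 5 lay above 0, as did 7588 of the 15540 genes, with a median log2 fold change of 0.29, though Ereg and Btc were within their SE of 0. All 3 receptors lay below 0, with a median of -0.13. No direction is called for either group. The median was 0.06 over all 10 members and -0.01 over all genes tested. Egf, the founding ligand of the family and no member of the chosen set, was called lower. A list of 29 genes that respond to EGFR and ERK signalling held 9 called higher (31.0%) and 0 called lower. Of all genes, 3.82% were called higher and 4.31% lower. The list was drawn up with earlier results of these data known.

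**Figure D1:**
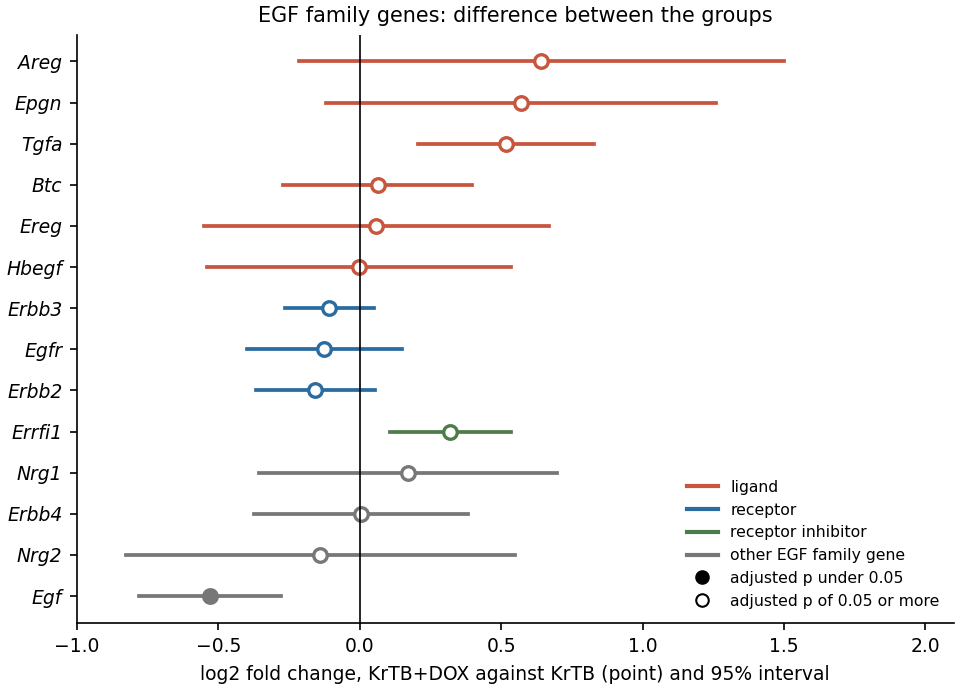
Log2 fold change of KrTB+DOX against KrTB (horizontal axis) with its 95% interval for the 10 members and for the 4 other EGF family genes that had a value. Filled points passed an adjusted p under 0.05; Egf at -0.53 is the only filled point, and the intervals of Tgfa and Errfi1 are the only member intervals that leave out 0.

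Tgfa, which encodes transforming growth factor alpha, an EGFR ligand of keratinocytes, came nearest to the threshold. Its log2 fold change was 0.52 (SE 0.14, 95% interval 0.20 to 0.83, limma adjusted p = 0.0511) in the authors' deposited table, a 1.43-fold higher level in KrTB+DOX. At this SE a log2 difference of 0.521 would have passed, against a measured 0.517. The call depended on the adjustment. The adjusted p of Tgfa was 0.0485 when genes whose mean lay under 1 log2 CPM (library-scaled read counts) were left out, 0.0491 after centring on the median of all genes, and 0.0440 without the trend on GC content and length. It was 0.0612 after centring within 20 expression bins, with a log2 fold change of 0.49, and 0.600 when tested against a 1.2-fold change. The trend on GC content and length was taken out with the constant of its fit. That setting therefore also recentred the genes, and the median amount subtracted over all genes was -0.04.

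Errfi1 was the second nearest, with a log2 fold change of 0.32 (SE 0.10, 95% interval 0.11 to 0.53, limma adjusted p = 0.0696) in the authors' deposited table. This is a 1.25-fold difference. Without the trend on GC content and length and the constant of that fit, its log2 fold change was 0.38 and its adjusted p 0.0416. Errfi1 did not pass after centring on the median of all genes or with the minimum on mean expression.

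The letters upstream of Tgfa and Errfi1 are shown because these 2 members came closest to a call, and those of Areg because it shares motifs with Errfi1. Each is the 250 bases before the RefSeq start, 5′ to 3′ on the gene's own strand, on GRCm38.p6, with the matches of 5 searched motifs in capitals. They lie at chr6:86194972-86195221 (plus strand), chr4:150854820-150855069 (plus strand) and chr5:91139349-91139598 (plus strand).
Tgfa: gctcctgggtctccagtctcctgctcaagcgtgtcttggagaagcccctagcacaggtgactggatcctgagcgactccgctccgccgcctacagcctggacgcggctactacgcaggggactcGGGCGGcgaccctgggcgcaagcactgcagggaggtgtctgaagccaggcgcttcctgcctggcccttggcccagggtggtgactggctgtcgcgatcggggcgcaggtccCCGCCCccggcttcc
Errfi1: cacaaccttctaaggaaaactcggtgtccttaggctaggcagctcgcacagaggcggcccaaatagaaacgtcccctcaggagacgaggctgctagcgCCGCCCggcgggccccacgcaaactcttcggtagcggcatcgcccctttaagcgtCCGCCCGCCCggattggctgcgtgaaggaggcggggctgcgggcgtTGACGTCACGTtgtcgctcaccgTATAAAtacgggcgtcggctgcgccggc
Areg: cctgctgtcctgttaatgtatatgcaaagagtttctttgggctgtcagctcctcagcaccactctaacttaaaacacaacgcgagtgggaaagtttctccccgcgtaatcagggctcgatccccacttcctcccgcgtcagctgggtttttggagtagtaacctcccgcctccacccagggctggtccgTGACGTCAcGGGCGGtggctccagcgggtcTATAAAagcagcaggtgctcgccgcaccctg

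The motifs, searched on both strands, were TGANTCA (AP-1), TGACGTCA (the cyclic AMP response element), ACGTG (the core of the hypoxia response element), GGGCGG (GC box) and TATAAA. Windows were found for 7 of the 10 members, 8 windows in all, since Errfi1 has 2. TGACGTCA occurred in 2 of the 8 windows, those of Errfi1 (51 bases before the start) and Areg (61 bases before it), and in 1.55% of the 32851 windows of all genes. Both windows also hold TATAAA, 28 bases before the start of Errfi1 and 31 bases before that of Areg, which 12.4% of all windows hold. In Errfi1 the match to ACGTG overlaps TGACGTCA, and GC box matches overlap one another. The Tgfa window holds 2 GC boxes, a motif of 32.7% of all windows. TGANTCA was found in 0 of the 8 windows and in 6.75% of all windows. The other Errfi1 window, at chr4:150853546-150853795, holds 0 matches to the 5 motifs. It lies ahead of the annotated gene start at 150853919, whereas the printed window, which holds the matches, lies inside the annotated gene. These are matches of letters and not measured binding.

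The remaining ligands, except Btc, were measured with wide intervals. Areg encodes amphiregulin, a heparin-binding ligand that keratinocytes use on themselves. Its log2 fold change of 0.64 was the largest of the 10 in size, but with an SE of 0.38 the 95% interval ran from -0.21 to 1.50 (limma adjusted p = 0.328) in the authors' deposited table. Epgn encodes epigen, a low-affinity EGFR ligand, and stood at 0.57 (SE 0.31, 95% interval -0.12 to 1.26, limma adjusted p = 0.280) in the authors' deposited table. For these ligands the data leave room for a 2.83-fold (Areg) or 2.40-fold (Epgn) higher level and for a level up to 1.16-fold (Areg) or 1.09-fold (Epgn) lower.

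Ereg, Btc and Hbegf, whose products bind both EGFR and ERBB4, lay close to 0. The log2 fold change was 0.06 for Ereg (epiregulin, 95% interval -0.55 to 0.67, limma adjusted p = 0.918) in the authors' deposited table. For Btc (betacellulin) it was also 0.06, with a narrower interval of -0.27 to 0.40 (limma adjusted p = 0.829) in the authors' deposited table. Hbegf, the heparin-binding EGF-like growth factor of healing epithelia, stood at -0.0031 (95% interval -0.54 to 0.53, limma adjusted p = 0.996) in the authors' deposited table. Its sign turned to 0.0029 after centring on the median of all genes. An equal level in both groups is inside each of these intervals, and so is a 1.45-fold lower Hbegf or a 1.59-fold higher Ereg.

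The receptors were measured more tightly, and all lay slightly below 0. Erbb2 encodes the receptor with no known ligand of its own, the preferred partner of the others, and stood at -0.16 (SE 0.09, 95% interval -0.37 to 0.05, limma adjusted p = 0.328) in the authors' deposited table. Egfr stood at -0.13 (SE 0.12, interval -0.40 to 0.15, limma adjusted p = 0.560) in the authors' deposited table. Erbb3 encodes a neuregulin receptor with an impaired kinase that recruits PI3 kinase. It had the smallest SE of the 10 (0.07), a log2 fold change of -0.11 and an interval of -0.26 to 0.05 (limma adjusted p = 0.375) in the authors' deposited table. At their upper ends these intervals allow a 1.04-fold higher Erbb2 and Erbb3 and a 1.11-fold higher Egfr, and the lower ends a 1.29-fold lower Erbb2, a 1.2-fold lower Erbb3 and a 1.32-fold lower Egfr. Whether ligands and receptors differed from each other was not tested, because a test between genes needs values per library.

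The error of the difference rests on the spread between libraries within the groups, and for 4 of the 6 ligands it was wide beside genes of like expression. Against the median of the 500 genes nearest in mean expression, the SE was 3.40 times as large for Ereg, 3.33 times for Epgn, 2.42 times for Hbegf and 1.81 times for Areg. These SEs lay at percentiles from 96.6 (Areg) to 99.0 (Ereg) among those neighbours. Btc, at 1.03 times, was no wider than its neighbours, and Tgfa, at 1.70 times, lay at percentile 89.0. The receptors and the inhibitor ranged from 0.842 times (Erbb3) to 1.55 times (Egfr). The median ratio over the 6 ligands was 2.12. At its SE, Areg would have needed a log2 difference of 1.43 to pass, Epgn 1.15, Ereg 1.02 and Hbegf 0.90, whereas Erbb3 would have passed at 0.26.

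**Figure D2:**
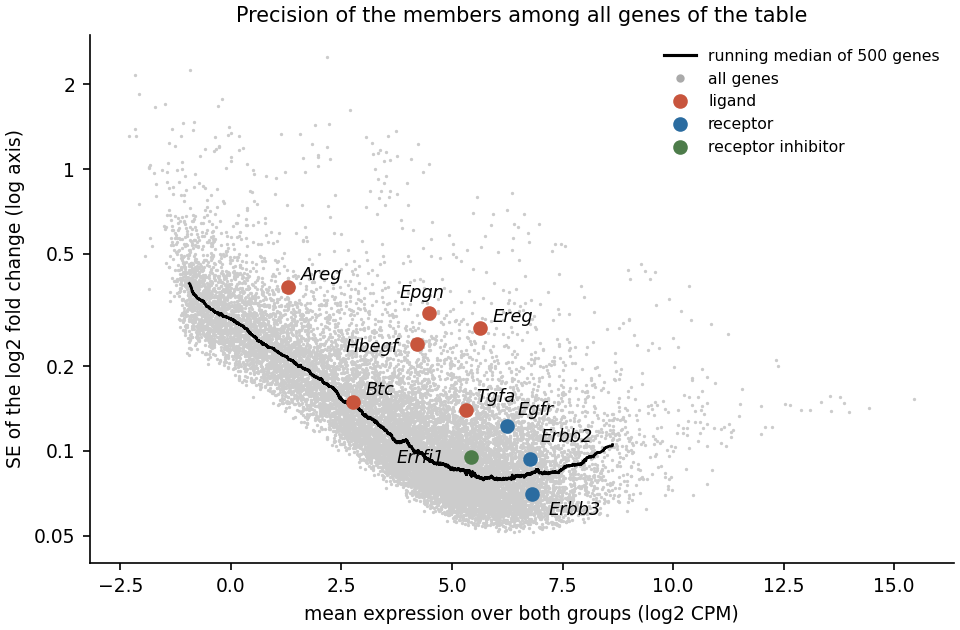
SE of the log2 fold change (vertical log axis) against mean expression in log2 CPM for all 15540 genes (grey), with the running median of 500 genes as a line and the 10 members coloured by role. Ereg (SE 0.27), Epgn (0.31), Hbegf (0.24) and Areg (0.38) sit well above the line, whereas Btc, Errfi1, Erbb2 and Erbb3 lie near it.

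Levels were compared between genes on a length-scaled scale, as mean CPM per kilobase of the longest annotated transcript. The mean over all libraries was highest for the receptors Erbb2 (21.8 CPM per kilobase) and Erbb3 (18.5), followed by Errfi1 (14.2). Epgn (12.6 CPM per kilobase) and Ereg (12.0) were the most abundant ligand transcripts, ahead of Tgfa (8.84). Egfr itself (7.48 CPM per kilobase) was below these ligands, Hbegf followed at 6.35, and Areg (2.03) and Btc (1.68) were lowest. Neighbours in this order that did not differ beyond their 95% spread were Errfi1 and Epgn, Epgn and Ereg, Egfr and Hbegf, and Areg and Btc. The spread was taken as SE divided by 2 for each mean, with the genes treated as independent. The order of Tgfa and Egfr also depends on the length used: per kilobase of the union of all exons Tgfa had 6.17 and Egfr 6.74.

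The level of each group was implied from the mean and the fold change, with equal parts of the difference to either side. In the authors' deposited table this gives Tgfa at 7.39 CPM per kilobase in KrTB and 10.6 in KrTB+DOX. For Epgn the implied levels were 10.3 and 15.4, for Ereg 11.8 and 12.3, and for Areg 1.63 and 2.54 CPM per kilobase from the authors' deposited table. Within the 6 ligands, Ereg made up the largest share of the summed level in KrTB (30.1%, against 26.4% for Epgn), and Epgn the largest share in KrTB+DOX (31.5%, against 25.1% for Ereg). This change of order was not tested, and neither Epgn nor Ereg passed by itself.

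**Figure D3:**
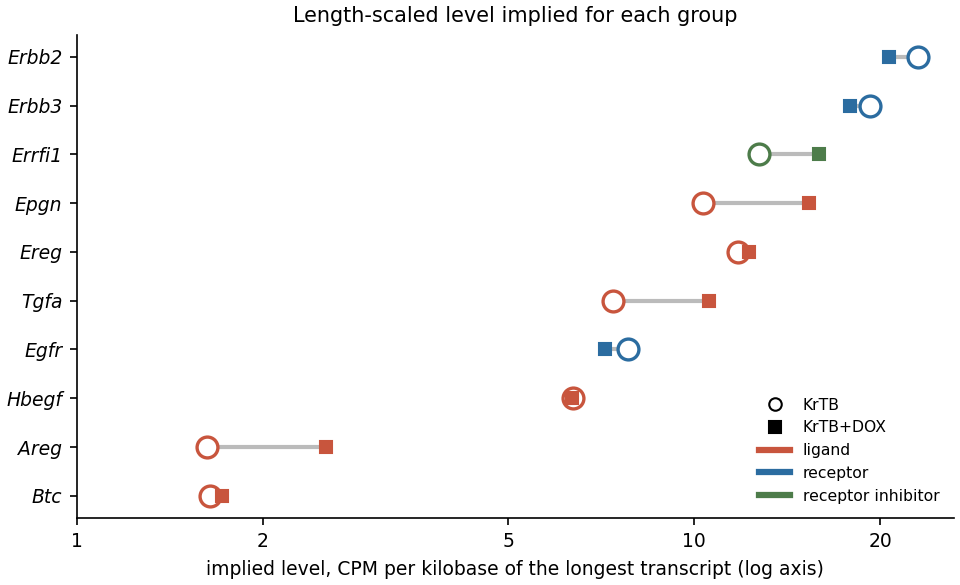
Level implied for KrTB (open circles) and KrTB+DOX (filled squares) from the authors' deposited table, in CPM per kilobase of the longest transcript on a log axis, for the 10 members in order of their mean. Erbb2 and Erbb3 lie highest and Areg and Btc lowest, and the widest gaps between the groups, those of Areg, Epgn and Tgfa, belong to members that did not pass.

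The genes of 4 ligands are neighbours in the mouse genome. Epgn, Ereg, Areg and Btc lie within 376 kb on chromosome 5, from 91027464 to 91402994 on GRCm38, and 0 other genes with a value lie between them. Their log2 fold changes along the chromosome were 0.57 (Epgn), 0.06 (Ereg), 0.64 (Areg) and 0.06 (Btc) in the authors' deposited table, with overlapping intervals, so no gradient along the cluster could be read. The measured genes on either side were Mthfd2l, a folate enzyme gene (log2 fold change -0.21, SE 0.10, limma adjusted p = 0.223), and Parm1 (0.13, SE 0.10, limma adjusted p = 0.443) in the authors' deposited table. Around all 10 members, 15 measured neighbours or overlapping genes were found and 1 was called, where 8.13% of all genes were called. It was the prefoldin subunit gene Pfdn1, 50403 bp from Hbegf (-0.37, SE 0.07, limma adjusted p = 0.0123 in the authors' deposited table). Mien1 overlaps the end of Erbb2 on the opposite strand (log2 fold change -0.04, limma adjusted p = 0.803 in the authors' deposited table), and no source used here gives the strand setting of the read counting.

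**Figure D4:**
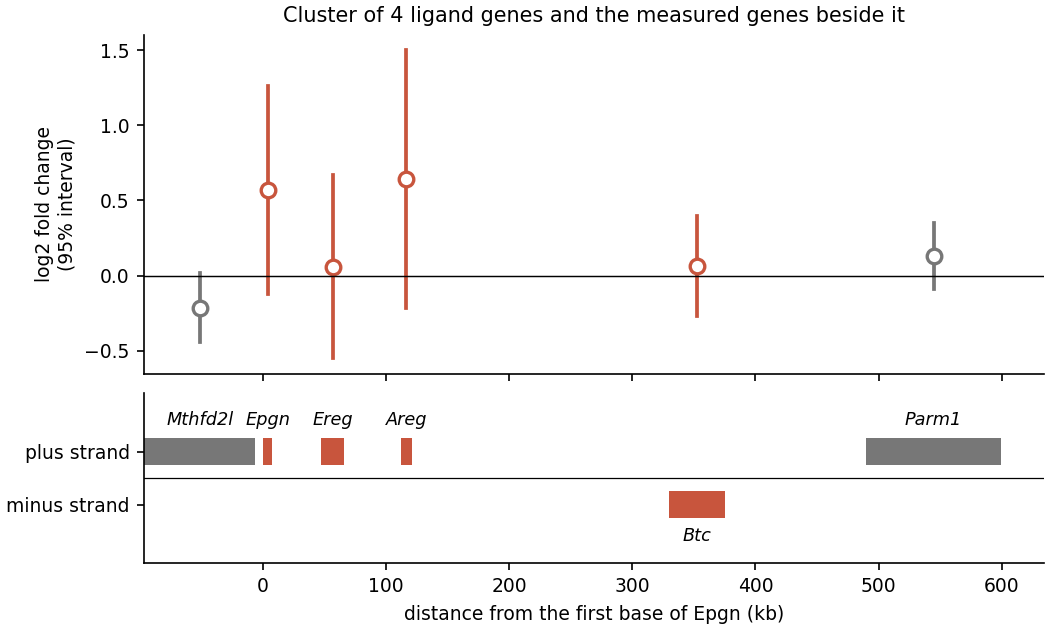
Log2 fold change with 95% interval (upper panel) and position and strand (lower panel) of the ligand genes Epgn, Ereg, Areg and Btc and of the measured genes beside them, against distance from the first base of Epgn in kb. Every interval includes 0.

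Among the 6 other genes of the family, Egf, Nrg1, Nrg2 and Erbb4 had a value, and 1 of the 4 was called, beside 8.13% of all genes. Egf fell, with a log2 fold change of -0.53 (SE 0.11, 95% interval -0.78 to -0.28, limma adjusted p = 0.0232) in the authors' deposited table, a 1.44-fold lower level. The implied level of Egf was 5.67 CPM per kilobase in KrTB and 3.93 in KrTB+DOX from the authors' deposited table. Its place among the ligands depends on the length used: its mean was 4.72 per kilobase of the longest transcript, above Areg, and 1.99 per kilobase of exon union, beside 2.03 for Areg. Tested against a 1.2-fold change, Egf had an adjusted p of 0.353. The noncoding 6330410L21Rik, picked after its value was seen, overlaps Egf on the opposite strand and stood at -0.47 (SE 0.18, limma adjusted p = 0.147) in the authors' deposited table. Nrg1, a neuregulin that binds Erbb3 and Erbb4, stood at 0.17 (SE 0.24), Nrg2 at -0.14 (SE 0.31) and Erbb4 at 0.00 (SE 0.17) in the authors' deposited table. Salivary ducts of mice are known to make Egf, and of 7 salivary gland markers 2 had a value, Amy1 at 0.46 (limma adjusted p = 0.0931) and Aqp5 at 0.32 (0.760) in the authors' deposited table, both named after their values were seen. Their part in the fall of Egf was not tested.

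Release of the ligands involves ADAM proteases, their iRhom carriers and TIMP inhibitors. Of 12 such genes 1 was called higher and 0 lower, beside 3.82% of all genes called higher and 4.31% lower, with a median log2 fold change of 0.06. The riser was Frmd8, whose product stabilises the complex of iRhom and ADAM17 (log2 fold change 0.32, SE 0.08, limma adjusted p = 0.0387 in the authors' deposited table). Adam17, the main sheddase of Tgfa, Areg, Ereg, Epgn and Hbegf, stood at -0.17 (SE 0.08, limma adjusted p = 0.219) and Adam10, which releases Egf and Btc, at -0.14 (SE 0.07, 0.264) in the authors' deposited table. The ADAM17 inhibitor gene Timp3 (0.32, limma adjusted p = 0.0763) and the iRhom2 gene Rhbdf2 (0.25, 0.107) were likewise not called in the authors' deposited table.

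Of 27 genes that restrain or traffic the receptors, 2 rose (7.41%) and 0 fell, beside 3.82% and 4.31% of all genes, with a median log2 fold change of 0.10. Ptprj, a receptor-type tyrosine phosphatase that in human cells acts on EGFR, rose 1.88-fold (log2 fold change 0.91, SE 0.09, limma adjusted p = 0.00107) in the authors' deposited table. It was the only gene of the 6 pathway lists that also passed a Bonferroni adjustment over all genes. Rnf41, which encodes the ubiquitin ligase Nrdp1 that lowers Erbb3 protein, rose by 0.29 (SE 0.07, limma adjusted p = 0.0348) in the authors' deposited table. Ptprk (-0.30, limma adjusted p = 0.0581), Socs5 (0.27, 0.0812), Ptpn1 (0.25, 0.0900) and the CBL partner Sh3kbp1 (0.23, 0.127) were short of the threshold in the authors' deposited table.

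Of 37 adaptor and signalling genes 0 rose and 1 fell (2.70%), near the 3.82% and 4.31% of all genes, with a median log2 fold change of -0.09. The one called was Gab1, a docking protein that links receptors to PI3 kinase and the phosphatase Shp2 (log2 fold change -0.56, SE 0.09, limma adjusted p = 0.00960 in the authors' deposited table). Crk (0.29, limma adjusted p = 0.0510), Stat5a (-0.42, 0.0537), Grb10 (-0.46, 0.0754) and Crkl (0.20, 0.0842) had the next smallest p-values in the authors' deposited table. The 37 genes include those for Ras, Raf, MEK and ERK, and none of these was called.

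Genes that respond to EGFR and ERK signalling included several that were called. Of 29 genes, 9 (31.0%) were called higher and 0 lower, where 3.82% of all genes were called higher, and the median log2 fold change was 0.34. The list was drawn up with earlier results of these data known, and many of its genes also respond to signals other than EGFR. The risers included the AP-1 subunit gene Fosl1 (log2 fold change 1.72, SE 0.29) and the immediate early transcription factor gene Egr3 (1.35, SE 0.35, limma adjusted p = 0.0439) in the authors' deposited table. Risers that restrain the pathway were the ERK phosphatase gene Dusp5 (0.74, SE 0.17), the stress phosphatase gene Dusp1 (0.42, SE 0.11) and the Ras pathway inhibitor gene Spry4 (0.61, SE 0.13) in the authors' deposited table. Phlda1 (0.57, SE 0.09), Ccnd1, which encodes cyclin D1 (0.67, SE 0.10), Ier3 and Vegfa completed the 9 in the authors' deposited table. The other 20 genes were not called, and their values ranged widely. Dusp6 stood at 0.03 (SE 0.11, limma adjusted p = 0.894), Spry2 at -0.11 (SE 0.12, 0.620) and Etv5 at 0.17 (SE 0.09, 0.276) in the authors' deposited table. Egr1 stood at 1.01 (SE 0.52, limma adjusted p = 0.256) and Junb at 0.25 (SE 0.17, 0.383). These 5 were named after their values were seen. Of all 29 genes, 23 lay above 0 and 6 below. Fos (0.87, SE 0.32), Fosb (1.18, SE 0.47), Ptgs2 (0.83, SE 0.27) and Ier2 (0.37, SE 0.13) had adjusted p-values from 0.0917 to 0.154 in the authors' deposited table. Tested against a 1.2-fold change, 2 of the 9 passed, Fosl1 and Vegfa.

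**Figure D5:**
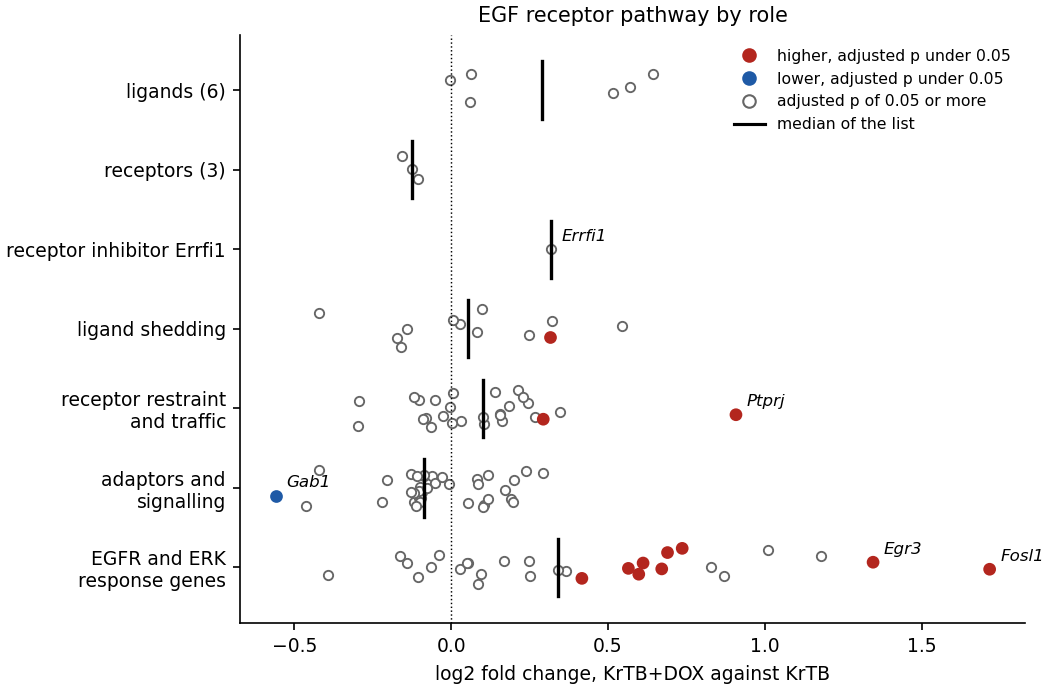
Log2 fold change of KrTB+DOX against KrTB (horizontal axis) for the members and 4 pathway lists, 1 point a gene with vertical scatter for legibility, filled where the adjusted p was under 0.05 (red higher, blue lower), with the median of each list as a bar. The members have no filled point, and the response genes have 9 filled points above 0.

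Markers of other cell types were measured beside those of epithelium. Over all genes, 3.82% were called higher and 4.31% lower. In lists this short, a single call is no result about a cell type. Those of skeletal muscle were all measured (9 of 9, means from 6.27 to 13.6 log2 CPM), 0 were called, and their summed implied level was 40879 CPM in KrTB and 34600 in KrTB+DOX. All 9 muscle markers lay below 0, as did 7952 of the 15540 genes, with a median log2 fold change of -0.26. An unadjusted limma p under 0.05 was reached by 3 of the 9 and by 25.2% of all genes. Of 8 fibroblast markers 4 fell (50%) and 0 rose, with sums of 3037 and 1537 CPM. The 4 were Col3a1 (log2 fold change -2.05), Col1a2 (-1.31), Col1a1 (-1.25) and Lum (-0.83). Dpt (-0.61, limma adjusted p = 0.0556), Pdgfra (-0.44, 0.209), Pdgfrb (-0.24, 0.153) and Dcn (-0.15, 0.518) were not called. The fall was thus uneven over the list, and the sums weigh the most abundant markers most. Of 8 basal keratinocyte markers 2 rose (25%), Trp63 and Krt15 (named after their values were seen), and 0 fell, with sums of 5859 and 7995 CPM. Krt14 (log2 fold change 0.80) and Krt5 (0.40), the most abundant of the list, weigh most in these sums and were not called. Itgb4 (0.15), Col17a1 (0.13), Dst (0.03) and Itga6 (-0.03) were not called either. The rise was thus uneven over this list too. Suprabasal keratinocyte markers (10 of 10 measured, 1 lower) summed to 41501 and 36947 CPM. Their single values went both ways, with 6 of 10 above 0 and a median log2 fold change of 0.04. Sums were also taken for endothelial markers (8 of 8, 1 lower), at 602.6 and 588 CPM, and for immune markers (8 of 10, 1 lower, Cd3e and S100a9 without a value), at 119.1 and 106 CPM. Melanocyte and Schwann cell markers (5 of 6, 0 called) summed to 258.7 and 193 CPM, and the 2 salivary gland markers to 17.7 and 24.0 CPM. The part of these shifts in the values of the members was not tested, and in whole tissue fewer cells of a type and less RNA per cell cannot be told apart.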

How the data were processed

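Stranded mRNA libraries of 8 tongue epithelium samples were read as pairs of 51 bp, per the labels' protocols. Tools listed in the submitters' processing notes, without roles, are STAR 2.5.2b, HTSeq 0.11.2, cutadapt and bcl2fastq 2.20, and the listed build is GRCm38. The data are the authors' own comparison table with limma's column names, per the file headers: 0 columns hold values of a library, so depth is unknown. In the authors' deposited table the fold change and the mean (log2 CPM) are on the log2 scale. The moderated t score and its p-value and Benjamini-Hochberg adjusted p-value were also deposited by the authors, and the B score was not used. Sign was read from Bmi1. No source used here gives the authors' filter, design formula or annotation.

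SE was the fold change divided by t, and 95% intervals used the 9.76 degrees of freedom that t and p imply. Calls used the deposited adjusted p under 0.05 over all 15540 genes. The planned count model was replaced by these deposited limma statistics, since no counts per library were in the table. The libraries are called biological replicates in the design text. Lengths, GC and positions came from GENCODE M21 (15085 symbols matched directly, 302 by synonym, 153 not), promoters from RefSeq (GRCm38.p6), with Python 3.11.15 and SciPy 1.17.1. Recalculated adjustments were tested on simulated data. Implied group levels assume equally weighted libraries. Members and lists were chosen with earlier results of these data known. Named genes were the members, Bmi1, every called gene of 6 pathway lists, the 4 uncalled genes of smallest p in each, and chromosomal neighbours; others are said to be named after their values were seen. Alternatives changed the threshold, filter, null hypothesis, scaling, GC and length trend, adjustment and transcript length.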

Additional observations from a re-analysis of the deposited data

How the results depend on the processing

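The count of members called lower was 0 under all 8 alternatives. Members called higher were 0 in the main count, beside 593 of all genes. At an adjusted p under 0.10 they were 2 (Tgfa and Errfi1), beside 1148 of all genes called higher, and 15.1% passed in either direction. Once the trend on GC content and length was taken out they were 2 (Tgfa and Errfi1), beside 668 of all genes higher and 547 lower. With the minimum of 1 log2 CPM they were 1 (Tgfa), beside 579 called higher. After centring on the median of all genes they were 1 (Tgfa), beside 633. Members called higher were 0 under the other 4. Of 121 measured pathway genes, 13 were called higher (10.7%, beside 3.82% of all genes). Their count became 7 at an adjusted p under 0.01, 20 under 0.10, 3 against a 1.2-fold change and 1 with Bonferroni adjustment. Over all genes, the 593 called higher became 146, 1148, 104 and 23. The 3 pathway genes called lower (Egf, Fgfr4 and Gab1, 2.48%, beside 4.31% of all genes) became 1, 6, 0 and 0 under the same alternatives. Over all genes, the 670 called lower became 157, 1199, 118 and 11. Hbegf turned sign to 0.0029 after centring and to 0.0297 without the trend on GC content and length. Of the 80 member values under alternatives, 72 kept their direction and side of the threshold, 2 turned sign and 6 gained a call. Per kilobase of exon union, the levels of 3 members (Errfi1, Tgfa and Hbegf) moved by more than 1 SD between libraries, taken as SE times the square root of 2. The cause of these changes was not tested. No paired analysis was possible because the table holds no values per library. Leaving out replicates, DESeq2 and an unfiltered fit were not run for the same reason. Depth per library is unknown, and the SE limits what can be seen.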

Other observations

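Other receptor tyrosine kinases of epithelium, fixed as a list of 12, had 1 member called higher and 1 called lower (8.33% each, beside 3.82% and 4.31% of all genes). Igf1r, the receptor of insulin-like growth factors, rose by 0.53 on the log2 scale (SE 0.08, limma adjusted p = 0.00762) in the authors' deposited table. Fgfr4, a fibroblast growth factor receptor, fell by 0.63 (SE 0.14, limma adjusted p = 0.0243) in the authors' deposited table, at a low mean of 2.37 log2 CPM. Met, the hepatocyte growth factor receptor, stood at 0.28 (limma adjusted p = 0.0569), Epha1 at -0.28 (0.127), Mst1r at 0.25 (0.224) and Fgfr3 at -0.19 (0.283) in the authors' deposited table. The median of the list was 0.08. Whether Igf1r differed from Egfr in its response was not tested.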
